A study of Mus musculus with 4 samples.

Results

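Amino acid transporters of the Slc1, Slc3, Slc6, Slc7, Slc36, Slc38 and Slc43 families were followed through preimplantation development of the mouse. They were taken by symbol, as all rows of the count matrices named for a gene of these families, which gave 67 of 55453 genes. Of these, 63 name a transporter. The other 4, Slc7a6os, Slc36a3os, Slc36a1os and Slc6a19os, are named for lying opposite a transporter. At least 10 counts over all wells were found for 35 genes (33 transporters), 17 genes had 1 to 9 counts, and 15 had none. Not every carrier of these families moves amino acids: Slc6a8 carries creatine, Slc6a6 taurine, Slc6a4 serotonin and Slc43a3 nucleobases.

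RNA was counted in wells of mouse embryos that had received a morpholino, an antisense oligonucleotide that keeps its target RNA from being translated or spliced. The wells filled 2 plates of 96 with morulae, in which the cells have compacted, and another 2 with blastocysts, in which a trophectoderm surrounds the inner cell mass. Every plate held 48 wells with a control morpholino and 48 wells with a morpholino against NKX1-2, a homeobox transcription factor. All groups therefore carried a morpholino, and uninjected embryos were not analysed here. The sources used here give no strain, no morpholino dose and no embryo of origin for a well, and although the libraries are labelled as single-cell, the number of cells in a well is not stated. The same 96 well barcodes were used on each plate.

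Counts of the 368 of 384 wells in which 2000 or more genes were detected were added up per plate and morpholino, to 2081917 to 2398605 counts per morula sum and 1084312 to 1685358 per blastocyst sum. Each stage thus has n = 2 plates as replicates. For stage differences, p-values measure the spread between plates, which may be technical. For morpholino effects the plate is a block, and p-values measure how the difference within a plate varies from plate to plate, with the spread estimated from both stages together. Levels are given as CPM, a gene's counts scaled to an equal total in every sum. A sum with 0 counts of a gene allows a level of up to 1.25 to 2.77 CPM at a limit of 3 counts. Intervals and such limits cover counting error only. Nkx1-2, the target of the morpholino, had 0 counts in all 8 sums, which allows up to 0.205 CPM over all kept wells, and so gives no check of the labels. Trophectoderm markers (16 genes, none at 0 throughout) summed to 790 to 902 CPM in morula sums and 941 to 1163 CPM in blastocyst sums. Inner cell mass or epiblast markers (14 genes) went from 3581 to 4241 CPM to 2658 to 3336 CPM, and primitive endoderm markers (11 genes) from 290 to 338 CPM to 131 to 209 CPM. Utf1 and Upp1 of the inner cell mass markers lie in a run of 344 neighbouring genes without any morula count. Their morula sums therefore rest on the other markers. Markers of oocytes or polar bodies (8 genes, none at 0 throughout) were present, at 45.4 to 56.1 CPM in morula and 18.4 to 45.2 CPM in blastocyst sums. Markers of cumulus or granulosa cells stayed between 0 and 2.05 CPM, with 3 of 6 genes at 0, fibroblast markers between 0.421 and 4.61 CPM, with 1 of 5 at 0 (Col3a1), and blood markers between 2.77 and 11.1 CPM, with 1 of 5 at 0 (Hbb-bt).

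Before implantation, an embryo takes up amino acids from the oviduct and uterus as building blocks, as osmolytes and as signals to the growth kinase mTORC1. Carriers differ in what drives them: Slc1, Slc6 and Slc38 proteins mostly use the sodium gradient, Slc36 proteins use protons, and Slc7 light chains exchange amino acids after joining a heavy chain of the Slc3 family. In mouse embryos, glycine uptake by Slc6a9 is known for its role in controlling the volume of early cleavage-stage cells, and Slc6a14 for leucine uptake at the blastocyst stage.

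Summed over the 63 transporter genes, the level was 1326 ± 42.0 CPM in morula control wells and 631 ± 17.8 CPM in blastocyst control wells (mean ± SD, n = 2 plates), a ratio of 2.10. In NKX1-2 wells it was 1271 ± 59.3 and 718 ± 19.5 CPM, a ratio of 1.77. Most of the drop came from the Slc6 family, which held 605 ± 36.6 CPM (45.6% of the transporter total) in morula control wells and 129 ± 13.6 CPM (20.4%) in blastocyst control wells. The Slc38 family did not follow it, with 50.1 ± 7.75 CPM in the morula and 61.1 ± 9.43 CPM in the blastocyst. Plates of the stages did not overlap in the total or in the Slc6 sum, while the Slc38 sums of control wells did (44.7 and 55.6 against 54.4 and 67.8 CPM). In NKX1-2 wells the Slc38 sums were 47.6 and 51.7 CPM in the morula and 92.8 and 70.6 CPM in the blastocyst and did not overlap. These sums are relative to the total RNA of the wells. In bulk sums, fewer cells with a transcript and less RNA per cell cannot be told apart.

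**Figure D1:**
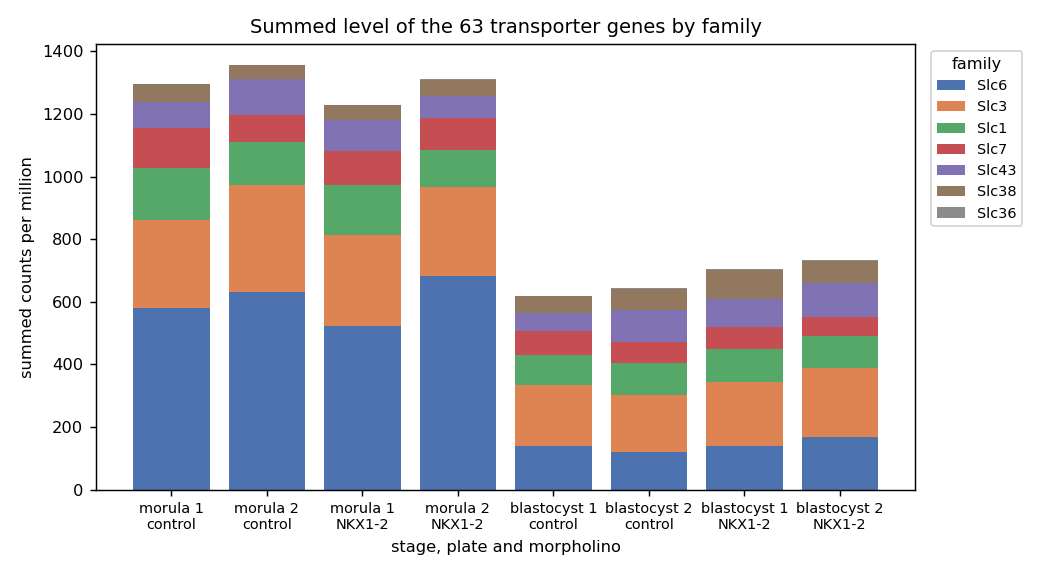
Stacked bars give the summed CPM of the 63 transporter genes by family in each of the 8 sums (stage, plate and morpholino). The Slc6 block is 524 to 682 CPM high in the morula sums and 119 to 168 CPM high in the blastocyst sums.

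How a stage difference is scaled mattered for these genes. The tests below used TMM factors, which bring the median gene to a log2 difference near 0 (-0.01 in control and -0.02 in NKX1-2 wells). Scaled to total counts alone, the median gene was lower in the blastocyst by a log2 difference of -0.29 and -0.28. Log2 fold changes given from the fits are therefore relative to the median gene. Between the stages, 17 of the 35 genes passed the filter on low counts in the control fit and 22 in the NKX1-2 fit. The others were too low to be tested, and a gene that is high at only 1 stage could pass through that stage.

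In control wells, 6 of the 17 tested genes differed between the stages at an adjusted p under 0.05. Lower in the blastocyst were 4 (Slc6a8, Slc6a6, Slc7a5 and Slc1a5), where 21.6% of all tested genes were lower, and higher were 2 (Slc6a13 and Slc38a4), where 20.1% were higher. In NKX1-2 wells, 12 of 22 passed. The 5 lower genes were the same 4 and Slc7a6os (24.0% of all tested genes were lower), and the 7 higher ones were Slc38a4, Slc38a1, Slc36a3os, Slc6a14, Slc6a13, Slc38a9 and Slc43a3 (21.9% were higher). All of the 7 but Slc43a3 had only 0.417 to 5.003 CPM in the morula NKX1-2 sums. The 2 higher genes of control wells had 0 to 4.32 CPM in the morula control sums. These genes passed the filter through the blastocyst sums, where they were high, so the number of higher members is no result about the members. The median log2 fold change of the tested members was -0.05 in control wells and -0.03 in NKX1-2 wells. With scaling to total counts alone, 2 of the members were higher and 8 lower in control wells, and 5 higher and 7 lower in NKX1-2 wells. That scaling, chosen after seeing the data, moved all genes in the same direction, from 1921 higher and 2072 lower to 1258 and 2881 in control wells, and from 2242 and 2448 to 1548 and 3312 in NKX1-2 wells. The 2 fits use the same plates, so the second is no independent test of the first.

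**Figure D2:**
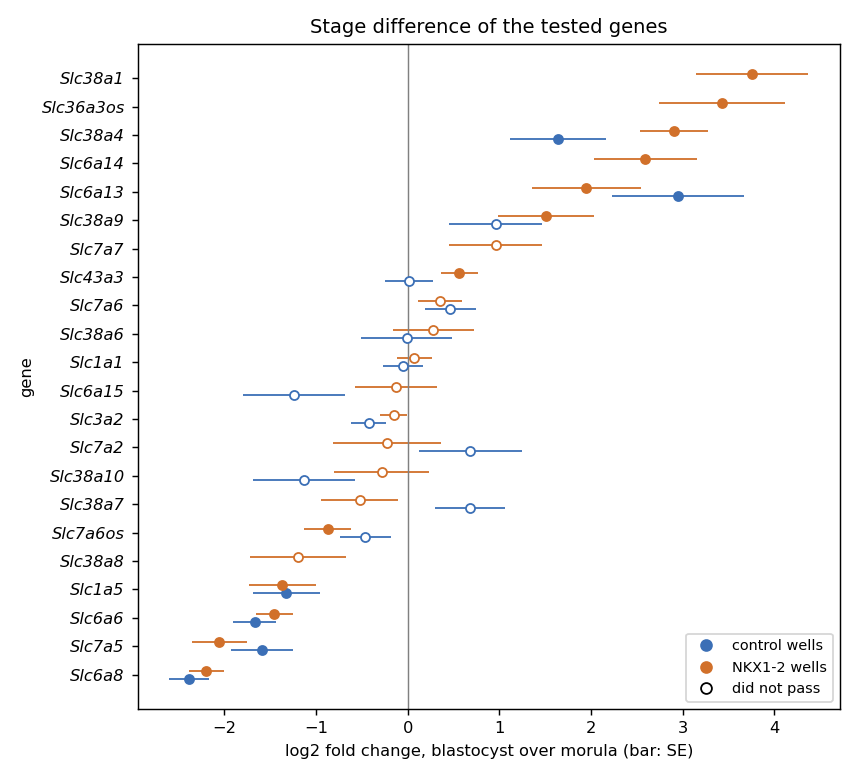
Points give the log2 fold change of blastocyst over morula from the edgeR fits for each tested gene, with control wells in blue and NKX1-2 wells in orange, bars for the standard error, and open points where the adjusted p was not under 0.05. Slc6a8, Slc7a5, Slc6a6 and Slc1a5 lie left of 0 in both kinds of wells, and Slc38a4 and Slc6a13 right of it.

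Among the members that fell were the creatine and taurine carriers. Slc6a8 (ENSMUSG00000019558, chromosome X, 73673150 to 73682502, plus strand, GRCm38), the creatine transporter, stood at 405 and 444 CPM in control wells of the morula plates and at 81.2 and 52.7 CPM on the blastocyst plates. NKX1-2 wells had 342 and 459 CPM in the morula and 63.02 and 80.1 CPM in the blastocyst. Every morula sum lay above every blastocyst sum. The fitted log2 fold change was -2.38 (SE 0.22, edgeR adjusted p = 8.29e-09) in control wells, a 5.21-fold drop, and -2.20 (SE 0.19, adjusted p = 4.45e-08) in NKX1-2 wells. All morula wells held a count of it, and the wells of morula plate 1 with the control morpholino ranged from 104 to 1045 CPM around a median of 370.2 CPM. On blastocyst plates, 72.1% to 93.2% of the wells held a count, with medians of 43.1 to 64.2 CPM. Thinned to 10000 counts per well, the shares were 91.5% to 97.9% in the morula and 34.0% to 62.8% in the blastocyst.

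Slc6a8 lies on the X chromosome, and the wells were a mixture with and without Y-linked counts. Uty, among the Y-linked genes used, lies in the run without morula counts, so only the others could mark morula wells. Wells with Xist and no Y-linked count made up 52.1% and 56.2% of control and 20.8% and 48.9% of NKX1-2 wells on the morula plates, and 34.9% and 14.0% of control and 74.5% and 45.5% of NKX1-2 wells on the blastocyst plates. Among those wells alone the stage difference of Slc6a8 was -1.86 in control and -2.38 in NKX1-2 wells on the log2 scale, and both passed the test.

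Slc6a6 (chromosome 6, 91684053 to 91759066, plus strand), the taurine transporter, had 152 and 173 CPM in morula control wells and 39.7 and 43.1 CPM in blastocyst control wells. In NKX1-2 wells the values were 163 and 208 CPM, then 49.6 and 61.1 CPM. The stages did not overlap. Its log2 fold change was -1.67 (SE 0.23, edgeR adjusted p = 4.53e-06) in control and -1.45 (SE 0.20, adjusted p = 1.22e-05) in NKX1-2 wells. The share of wells with a count went from 95.8% to 100% in the morula sums to 55.8% to 84.1% in the blastocyst sums.

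A GABA carrier of the same family went the other way, at low levels. Slc6a13, which carries GABA, betaine and taurine, had 5 and 0 counts in morula control wells (2.32 and 0 CPM) and 7 and 13 counts in blastocyst control wells (6.46 and 8.90 CPM). NKX1-2 wells gave 1.26 and 2.08 CPM in the morula and 4.96 and 5.93 CPM in the blastocyst. All blastocyst sums lay above all morula sums, although few wells carried the gene (0% to 10.6% of morula wells, 12.8% to 15.9% of blastocyst wells). Log2 fold changes were 2.95 (SE 0.72, edgeR adjusted p = 0.0021) and 1.95 (SE 0.60, adjusted p = 0.0124). Without morula plate 2 the call in control wells was lost, at a log2 fold change of 2.00, and that in NKX1-2 wells was lost when any 1 of the 4 plates was left out and with DESeq2. Its neighbour Slc6a12, a betaine carrier, had 1 or 2 counts in each morula sum and 1 to 4 in each blastocyst sum and was not tested.

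Carriers of neutral and cationic amino acids in the Slc6 family were scarce. Slc6a14 (chromosome X, 21714896 to 21742355, plus strand) takes up both classes. It had 2 and 1 counts in morula control wells (0.927 and 0.480 CPM) and 5 and 7 in blastocyst control wells (4.61 and 4.79 CPM). That is a ratio of 6.66, with an exact 95% counting interval of 1.80 to 36.8. In NKX1-2 wells it rose from 3.37 and 0.834 CPM to 12.7 and 8.90 CPM (log2 fold change 2.60, SE 0.56, edgeR adjusted p = 0.000998), and the call held among wells with Xist and no Y-linked count (3.24). It was lost without blastocyst plate 1, at 2.36. Slc6a15, a carrier of branched-chain amino acids and proline, had 7.69 to 13.0 CPM in the morula and 2.77 to 7.79 CPM in the blastocyst and did not pass.

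The glycine and proline carriers known from oocytes and cleavage stages were nearly undetected. Slc6a9 had 4 counts in all 8 sums together, 1 in each control morula sum (0.464 and 0.480 CPM) and 1 in each sum of blastocyst plate 2 (0.684 and 0.593 CPM). Slc6a20a, a proline and betaine carrier, had 0 counts in every sum, which allows up to 0.205 CPM over all kept wells. It shares 32.0% of its transcripts' 31-base stretches with other genes, Slc6a20b among them, and reads could be split between these copies. Slc6a20b itself had 11 counts. The serotonin carrier Slc6a4 had 2 to 9 counts in the morula sums and 0 to 2 in the blastocyst sums. Of the 21 Slc6 transporters, 8 had no count in any well, as did 3 of 15 in the Slc7 family and 1 each in the Slc1, Slc38 and Slc43 families.

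Heavy chains summed to 313 CPM in morula and 189 CPM in blastocyst control wells (a ratio of 1.65), and light chains to 95.7 and 60.9 CPM (1.57). In NKX1-2 wells the ratios were 1.35 and 1.61, and their difference was not tested. Slc3a2 (chromosome 19, 8706882 to 8723369, minus strand), the CD98 heavy chain that brings light chains to the cell surface, had the highest mean CPM of these genes over the 8 sums. It had 281 and 343 CPM in morula control, 291 and 283 CPM in morula NKX1-2, 196 and 183 CPM in blastocyst control and 204 and 220 CPM in blastocyst NKX1-2 wells. The stages did not overlap in CPM, yet relative to the median gene the log2 fold change was -0.43 (SE 0.19, edgeR adjusted p = 0.0698) in control wells and -0.15 in NKX1-2 wells, and neither passed. With scaling to total counts alone it was called lower in both. Nearly all wells held it, 100% in the morula sums and 93.0% to 97.9% in the blastocyst sums.

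Slc7a5 (chromosome 8, 121881150 to 121907694, minus strand), the light chain for large neutral amino acids such as leucine, fell between the stages. Control wells had 65.8 and 39.9 CPM in the morula and 14.8 and 13.7 CPM in the blastocyst, and NKX1-2 wells 51.4 and 50.03 CPM and then 9.91 and 10.1 CPM. No morula sum came near a blastocyst sum. Its log2 fold change was -1.59 (SE 0.34, edgeR adjusted p = 0.000642) in control and -2.05 (SE 0.30, adjusted p = 2.71e-05) in NKX1-2 wells, and 75.0% to 87.5% of morula wells but 25.5% to 39.5% of blastocyst wells held a count. By contrast, Slc7a6, a light chain that exchanges cationic for neutral amino acids, had 41.3, 31.2, 42.99 and 36.3 CPM in the morula sums (control plates 1 and 2, then NKX1-2 plates 1 and 2) and 42.4, 39.0, 42.5 and 40.9 CPM in the blastocyst sums. The stages overlapped, and it did not pass. Slc7a7, a light chain of the same kind, lay between 3.37 and 7.71 CPM at both stages.

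Other members of the Slc7 family were near the limit of detection. Slc7a2, a carrier of cationic amino acids, had 1.78 to 10.1 CPM over the 8 sums. Slc7a4 and Slc7a14, relatives of the cationic carriers, had 5 to 9 and 2 to 10 counts in the morula sums but 0 to 3 and 0 to 1 in the blastocyst sums, while the arginine and lysine carrier Slc7a1 had 0 to 1 and then 1 to 5. None of these 3 passed the filter on low counts. The cystine exchanger Slc7a11 had 2 counts in all.

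Of the Slc1 family, 2 members carried most of the counts. Slc1a1, a glutamate and aspartate carrier, had 121 and 98.5 CPM in morula control, 120 and 91.3 CPM in morula NKX1-2, 79.3 and 92.4 CPM in blastocyst control and 92.1 and 90.2 CPM in blastocyst NKX1-2 wells, with log2 fold changes between the stages of -0.05 and 0.07. Of its exonic bases, 31.9% overlap 4430402I18Rik on the opposite strand, and since the use of strand in counting is not given, its level is uncertain. Slc1a5, the neutral amino acid exchanger known for glutamine uptake, fell from 43.6 and 32.7 to 15.7 and 9.58 CPM in control wells and from 25.3 and 23.3 to 6.37 and 8.90 CPM in NKX1-2 wells. Stages did not overlap. Log2 fold changes were -1.32 (SE 0.37, edgeR adjusted p = 0.00566) and -1.37 (SE 0.37, adjusted p = 0.00561). The call in control wells was lost without morula plate 1 or blastocyst plate 2, and that in NKX1-2 wells without blastocyst plate 1 and with DESeq2. Slc1a7 was the extreme case of uneven counts: 23 of its 24 counts came from morula plate 1, 5 in control wells and 18 in NKX1-2 wells, where a single well held 9. The glutamate carrier Slc1a3 had 1 to 8 counts in the morula sums and 0 to 9 in the blastocyst sums, and the neutral carrier Slc1a4 1 to 6 and 0 to 1. Neither was tested.

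**Figure D3:**
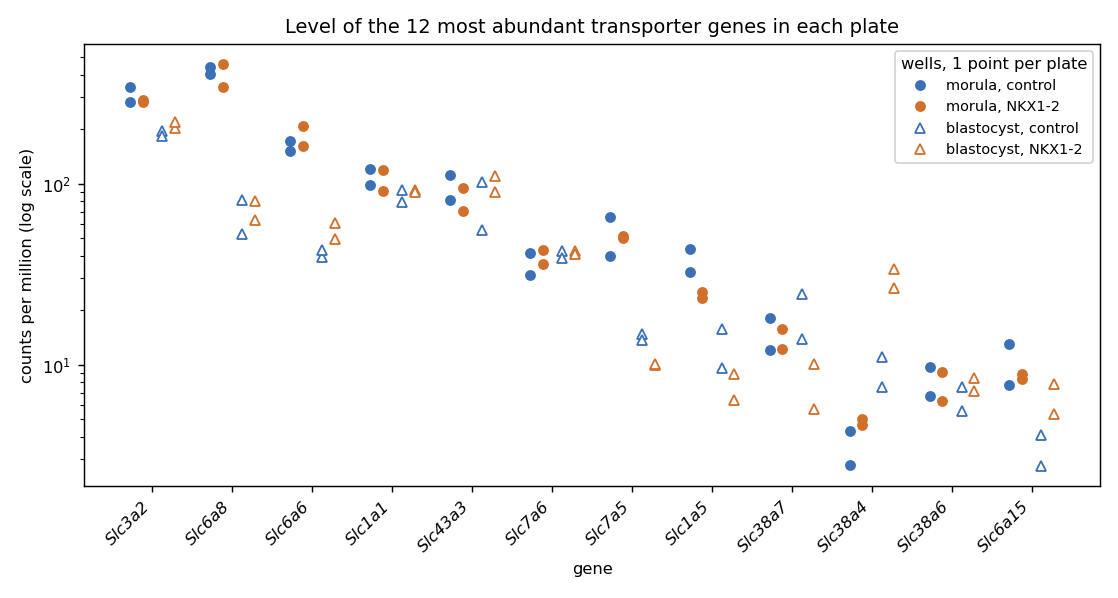
Points give the CPM (log axis) of the 12 most abundant transporter genes in each plate, filled circles for the morula and open triangles for the blastocyst, with control wells in blue and NKX1-2 wells in orange. Slc6a8, Slc6a6, Slc7a5 and Slc1a5 sit lower in the blastocyst in both colours. Slc38a4 is highest in the blastocyst NKX1-2 wells, at 26.7 and 34.0 CPM.

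Most of the Slc38 family are sodium-coupled carriers of neutral amino acids such as glutamine and alanine. Slc38a4 was called higher in control wells, and Slc38a4, Slc38a1 and Slc38a9 in NKX1-2 wells. Under the limit of the filter given above, the number of these calls is no result about the family. Slc38a4 (ENSMUSG00000022464, chromosome 15, 96994820 to 97055956, minus strand, GRCm38) is known in mouse as an imprinted gene expressed from the paternal allele, with a role in the placenta. It had 2.78 and 4.32 CPM in morula control wells and 11.1 and 7.53 CPM in blastocyst control wells, and NKX1-2 wells went from 4.64 and 5.003 to 34.0 and 26.7 CPM. The blastocyst sums lay above the morula sums in each case. Log2 fold changes were 1.64 (SE 0.53, edgeR adjusted p = 0.0155) in control and 2.91 (SE 0.37, adjusted p = 5.17e-06) in NKX1-2 wells. The first rested on 15 morula and 23 blastocyst counts and was lost without morula plate 1, morula plate 2 or blastocyst plate 1, without the filter on low counts and with DESeq2, at log2 fold changes of 1.31 to 1.98 over all settings tried.

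Slc38a4 is the member that passed between the stages in both kinds of wells and between the morpholinos in the blastocyst, so the sequence before its transcription starts is shown. RefSeq (GRCm38.p6) places 3 starts on the minus strand of chromosome 15, and each line gives the 250 bases upstream of a start, 5′ to 3′. The last lies at the outer end of the gene and the other 2 within its introns, with 0 bases of annotated Slc38a4 exon in any. Capitals mark a TATAAA.
Slc38a4 start 1, chr15:97020360-97020609: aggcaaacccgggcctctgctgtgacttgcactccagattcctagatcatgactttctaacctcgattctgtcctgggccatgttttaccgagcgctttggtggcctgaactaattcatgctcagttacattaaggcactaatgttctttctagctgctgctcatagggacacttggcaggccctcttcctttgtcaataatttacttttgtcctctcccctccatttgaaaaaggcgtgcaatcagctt
Slc38a4 start 2, chr15:97031214-97031463: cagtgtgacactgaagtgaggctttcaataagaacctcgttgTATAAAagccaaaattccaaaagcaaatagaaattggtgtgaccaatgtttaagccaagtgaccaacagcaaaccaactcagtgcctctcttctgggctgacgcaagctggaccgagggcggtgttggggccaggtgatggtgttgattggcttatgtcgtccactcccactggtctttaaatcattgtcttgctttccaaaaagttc
Slc38a4 start 3, chr15:97055957-97056206: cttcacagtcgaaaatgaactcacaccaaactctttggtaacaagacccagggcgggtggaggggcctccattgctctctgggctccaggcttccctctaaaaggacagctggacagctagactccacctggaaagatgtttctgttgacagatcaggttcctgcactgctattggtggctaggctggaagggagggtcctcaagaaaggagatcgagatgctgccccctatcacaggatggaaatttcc
The windows hold 5, 5 and 3 CpG, against a median of 6 in 32851 mouse windows, and the TATAAA of start 2 begins 208 bases before it. Both strands were searched for TGATGNAA (the ATF4 type, in 3.45% of all windows), CACGTG (the MYC type, 6.02%), GGAATG (the TEAD type, 12.6%), TATAAA (12.4%) and TAATTA (a core bound by many homeobox factors, 4.84%). No motif but TATAAA occurs in these 3 windows. Among the 49 members with a window, TAATTA occurs before Slc38a2, Slc6a16, Slc7a8 and Slc7a9. Counts per gene do not show which start was used.

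Slc38a1, which carries glutamine, alanine and serine, had 1.39 and 0.961 CPM in morula control and 0.843 and 0.834 CPM in morula NKX1-2 wells. In the blastocyst it had 1.84 and 9.58 CPM in control and 12.7 and 7.71 CPM in NKX1-2 wells. Control plates of the blastocyst thus differed widely, and the gene was tested in NKX1-2 wells alone, where its log2 fold change was 3.76 (SE 0.61, edgeR adjusted p = 7.63e-05) on 4 morula counts. Slc38a9, which senses arginine at the lysosome, had 4.17, 5.76, 2.53 and 3.75 CPM in the morula sums (control plates, then NKX1-2 plates) and 9.22, 6.84, 9.91 and 5.34 CPM in the blastocyst sums. It passed in NKX1-2 wells (1.51, SE 0.52, edgeR adjusted p = 0.0251) but not when any 1 plate was left out, nor with scaling to total counts alone, without the filter on low counts or with DESeq2.

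Slc38a7, a lysosomal glutamine carrier, had 18.1 and 12.01 CPM in morula control, 12.2 and 15.8 CPM in morula NKX1-2, 13.8 and 24.6 CPM in blastocyst control and 5.66 and 10.1 CPM in blastocyst NKX1-2 wells. The stages overlapped in control wells, and in NKX1-2 wells both blastocyst sums lay below both morula sums, a difference that did not pass. Slc38a6, whose transcripts share 40.7% of their 31-base stretches with other genes and whose level is therefore uncertain, ran from 6.32 to 9.73 CPM in the morula sums (9.73, 6.72, 6.32 and 9.17 CPM, control plates first) and from 5.53 to 8.50 CPM in the blastocyst sums (5.53, 7.53, 8.50 and 7.12 CPM). Slc38a10, Slc38a8, Slc38a2 and Slc38a11 lay between 0 and 12.1 CPM and did not pass or were not tested.

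Slc43a3, a nucleobase carrier, had 81.1 and 112 CPM in morula control, 94.4 and 70.9 CPM in morula NKX1-2, 55.3 and 102 CPM in blastocyst control and 90.6 and 110 CPM in blastocyst NKX1-2 wells. The stages overlapped with either morpholino. In NKX1-2 wells it passed with a log2 fold change of 0.56 (SE 0.20, edgeR adjusted p = 0.0286), a call that was lost without morula plate 2, without either blastocyst plate, with scaling to total counts alone, without the filter on low counts and with DESeq2. Slc43a2 had 0 to 2.77 CPM, and the proton-coupled Slc36a1 had 12 counts.

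The genes named for the opposite strand are no transporters. Slc7a6os, which lies beside Slc7a6 and whose yeast counterpart helps to bring RNA polymerase II into the nucleus, had 55.6 and 89.3 CPM in morula control, 76.7 and 52.9 CPM in morula NKX1-2, 37.8 and 47.2 CPM in blastocyst control and 29.0 and 29.1 CPM in blastocyst NKX1-2 wells. Stages did not overlap, and it passed in NKX1-2 wells (log2 fold change -0.87, SE 0.26, edgeR adjusted p = 0.00942). That call was lost without morula plate 1 or without either blastocyst plate, among wells with Xist and no Y-linked count and with DESeq2. Slc36a3os, an antisense RNA, had 4 and 1 counts in morula control, 2 and 1 in morula NKX1-2, 5 and 5 in blastocyst control and 8 and 11 in blastocyst NKX1-2 wells. Its fitted log2 fold change in NKX1-2 wells was 3.43 (SE 0.69, edgeR adjusted p = 0.000591), and the ratio of CPM was 9.76, with an exact 95% counting interval of 2.87 to 51.5. The call was lost without morula plate 2. Neither shares exonic bases with a gene on the opposite strand in GENCODE M21, but intronic reads of that gene cannot be told apart where strand is unknown.

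Per kilobase of exon, and if reads cover whole transcripts, which is not given, Slc3a2 (88.5 CPM per kb) and Slc6a8 (81.5) led in morula control wells, followed by Slc43a3 (21.7), Slc6a6 (19.2), Slc7a6os (17.2) and Slc7a5 (14.3). In blastocyst control wells Slc3a2 (53.6 CPM per kb) and Slc43a3 (17.6) led and Slc6a8 had 12.8. The order of neighbours such as Slc3a2 and Slc6a8 in the morula was within the spread of the plates.

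Each plate held both morpholinos, so the effect of the NKX1-2 morpholino on these transcripts was compared within plates. In the morula, 0 of 22 tested members passed by edgeR's quasi-likelihood test (60 of 10873 genes did, 0.552%), with 1 at an unadjusted p under 0.05, as had 1159 of the 10873 genes, and 0 by DESeq2. The 1 member, Slc1a5, had 43.6 and 32.7 CPM in control and 25.3 and 23.3 CPM in NKX1-2 wells (log2 fold change -0.65, SE 0.25, edgeR adjusted p = 0.327). It passed when the morula plates were fitted alone, as 1 of 17 tested members, where 834 of 10383 genes passed. The members' median log2 fold change was -0.12, against -0.00 over all genes tested.

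In the blastocyst, 1 of 22 members passed, and it was higher (0.386% of all tested genes were higher). Slc38a4 had 12 and 11 counts in control wells and 48 and 45 in NKX1-2 wells, a level of 9.30 ± 2.50 against 30.3 ± 5.15 CPM (mean ± SD, n = 2 plates). Both NKX1-2 sums lay above both control sums. Its log2 fold change was 1.69 (SE 0.37, edgeR adjusted p = 0.0461), and its share of wells with a count was 23.3% on each plate with the control morpholino (95% exact interval 11.8% to 38.6%) and 59.6% (44.3% to 73.6%) and 61.4% (45.5% to 75.6%) with the NKX1-2 morpholino. These intervals treat wells of unequal depth as independent and are no test of the morpholino, for which the plate is the replicate. In the blastocyst sums the wells with a count held between 1 and 5 of them, and the highest well gave 16.7% and 18.2% of the counts in the control sums and 8.33% and 11.1% in the NKX1-2 sums.

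This call stood close to the threshold. It was lost when every well was kept (adjusted p = 0.0529), without the plate block (0.0601) and among wells with Xist and no Y-linked count (0.497), with log2 fold changes of 1.55 to 1.84 over all settings, and DESeq2 gave it no adjusted p. The median of the 22 members was 0.13, against -0.00 over all genes. Leaving out either blastocyst plate kept it (1.84 and 1.55). Blastocyst NKX1-2 wells were deeper, with medians of 30453 and 37602 counts per well against 22391 and 31360. Thinned to 10000 counts, 11.9% and 4.65% of control wells and 23.4% and 18.6% of NKX1-2 wells held Slc38a4. Trophectoderm markers summed to 941 and 1015 CPM in control and 1163 and 1096 CPM in NKX1-2 wells, and inner cell mass markers (14 genes) to 3266 and 3336 against 2658 and 2754 CPM. The part of these markers in the result was not tested.

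**Figure D4:**
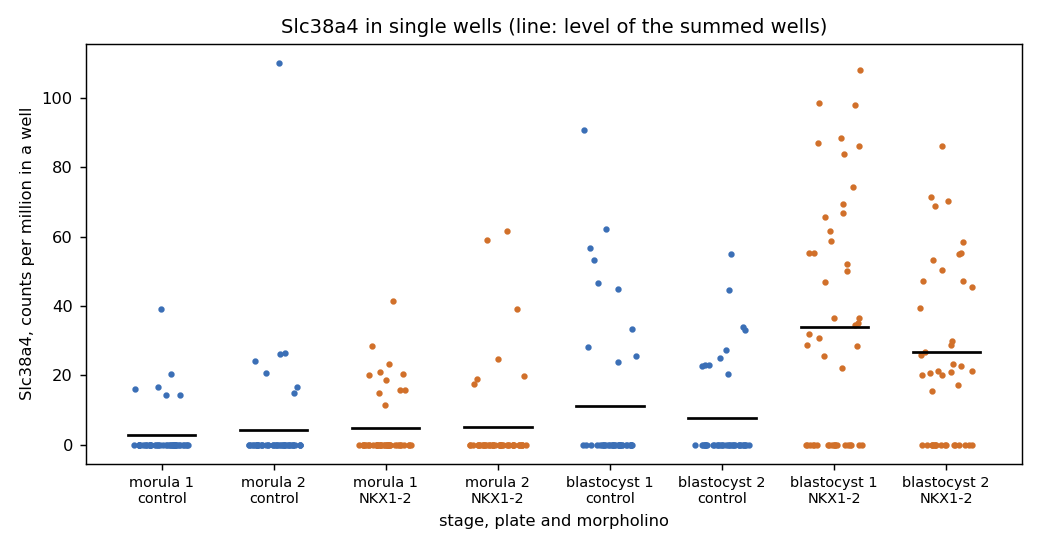
Each dot is a well, with its Slc38a4 level in CPM by stage, plate and morpholino, and black lines mark the level of the summed wells. Most control and morula wells lie at 0, while 59.6% and 61.4% of the NKX1-2 wells on the blastocyst plates lie above it, up to 108 CPM.

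On average over both stages, 0 of 22 members passed by edgeR (315 of 10873 genes did, 2.90%), with 5 at an unadjusted p under 0.05, as had 1803 of the 10873 genes, and 0 by DESeq2. Their median was 0.03, against -0.01 over all genes. Nearest was Slc38a4 (log2 fold change 1.06, adjusted p = 0.0757), followed by Slc38a7 (-0.70, adjusted p = 0.173), Slc1a5 (-0.67, adjusted p = 0.175), Slc6a14 (1.30, adjusted p = 0.219) and Slc6a6 (0.28, adjusted p = 0.26). Slc6a14 was higher in NKX1-2 wells on all 4 plates, with 2, 1, 5 and 7 counts in control and 8, 2, 18 and 15 in NKX1-2 wells. Slc6a14 passed the filter of this fit through the blastocyst NKX1-2 sums, where it was highest, so its direction is no result. It is X-linked, and the shares of Xist wells given above moved the other way on the morula plates and with it on the blastocyst plates. The part of sex in this difference was not tested.

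The difference of the morpholino effect between the stages passed for 0 of 22 members by edgeR (2 of 10873 genes did, 0.0184%), with 1 at an unadjusted p under 0.05, Slc38a7, and 0 by DESeq2. Slc38a7 was lower in NKX1-2 wells of both blastocyst plates (log2 fold change -1.30, SE 0.40, edgeR adjusted p = 0.151), and its difference between stages was -1.19 (adjusted p = 0.739). That of Slc38a4 was 1.26 and did not pass, so its effect in the blastocyst is not shown to differ from that in the morula (0.42).

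Plate by plate, effects of the 22 tested members pointed in no common direction. Log2 fold changes per plate, which are drawn toward 0 at low counts by a prior count of 2, were above 0 on both morula plates for 5 members (22.7%) and below 0 on both for 7 (31.8%), against 30.3% and 31.2% of all tested genes. On the blastocyst plates these numbers were 7 and 7 (31.8% each, against 27.1% and 28.0% of all tested genes). On all 4 plates, Slc38a4, Slc6a14 and Slc6a6 were above 0 (13.6% of the members, against 12.2% of all tested genes) and Slc1a5 below (4.55%, against 11.8%). Some of these members passed the filter of this fit only through NKX1-2 sums, where they were highest. These were Slc6a14 (12.7 and 8.90 CPM) and Slc36a3os (5.66 and 6.53 CPM) in the blastocyst, and Slc38a8 (7.59 and 8.76 CPM) in the morula. Their directions, which the counts above include, are therefore no result. For Slc38a4 the values were 0.55 and 0.15 in the morula and 1.48 and 1.71 in the blastocyst, and for Slc6a14 they were 1.11 and 0.27, then 1.24 and 0.79. Slc38a1 shows how a single plate can lead, at 2.24 on blastocyst plate 1 and -0.27 on plate 2. Slc6a8 went in opposite directions on the blastocyst plates (-0.42 and 0.61).

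**Figure D5:**
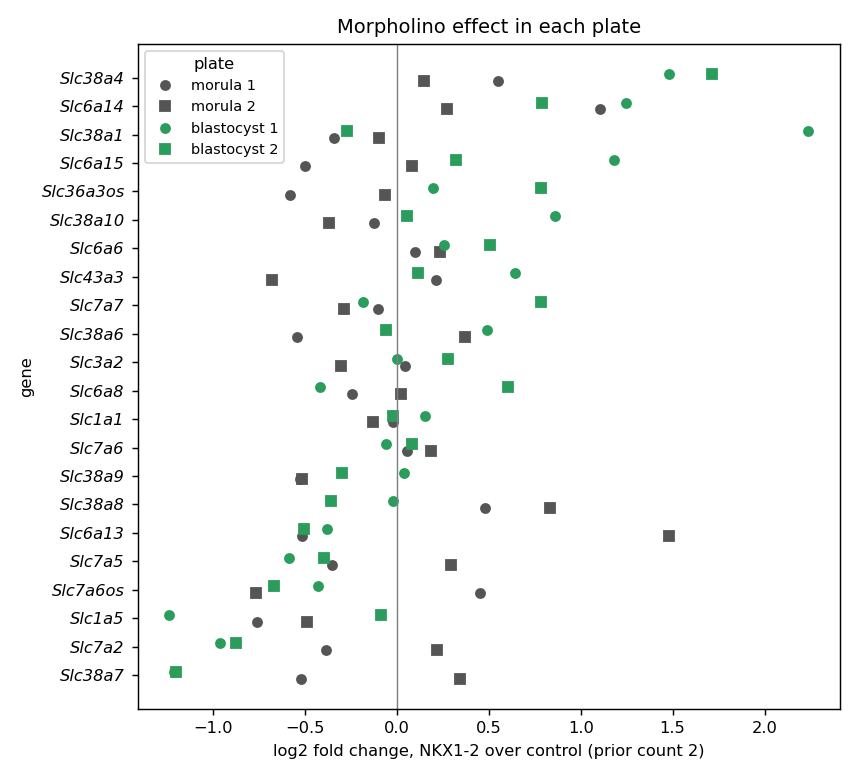
Points give the log2 fold change of NKX1-2 over control wells on each plate for the 22 tested genes, grey for morula and green for blastocyst plates, ordered by the blastocyst mean. Slc38a4 lies at 1.48 and 1.71 on the blastocyst plates, and most other genes have plates on both sides of 0.

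Blastocyst wells were also grouped by their other genes, leaving the transporters out. Of 6 clusters of 177 wells, 1 had 3 trophectoderm markers among its leading genes (Krt8, Krt18 and Fabp3) and is called trophectoderm-like, with 31 wells. Slc6a13 reached 23.7 CPM in it, in 35.5% of its wells, and 1.30 to 4.97 CPM in the other clusters. It was higher there on both plates (17.4 and 29.9 CPM). Slc3a2 had 131 CPM in these wells and 149.5 to 255 CPM elsewhere. Slc38a4 was not highest in this cluster, with 16.2 CPM in it and 5.18 to 34.7 CPM in the others. These are descriptions of wells, with no test, and doublets were not called.

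Another cluster held control wells only, 29 of the 86 control blastocyst wells, 15 and 14 from the plates. Its wells were shallower (median 23012 counts, against 28557 to 34167 in the other clusters), and its leading genes named no cell type. They had 22.0 CPM of Slc43a3, against 71.0 to 146 CPM in the other clusters, and 33.7 CPM of Slc6a8, against 46.2 to 98.2 CPM. Without these wells, an alternative chosen after seeing the data, the control level of Slc38a4 was 10.1 and 11.2 CPM, still below 34.0 and 26.7 CPM in NKX1-2 wells. Slc43a3 then stood at 71.9 and 138 CPM in control and 90.6 and 110 CPM in NKX1-2 wells, Slc3a2 at 179 and 143 CPM and Slc38a7 at 15.1 and 26.5 CPM in control wells.

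Genes that use or sense amino acids were compared in the same fits. Their stage differences stand beside 20.1% higher and 21.6% lower among all genes in control wells, and beside 21.9% and 24.0% in NKX1-2 wells. Of 14 mitochondrial carriers, 2 were higher and 4 lower in the blastocyst among 9 tested in control wells (median log2 fold change -0.70, against -0.01 for all genes). The glutamate and aspartate carriers went apart, with Slc25a13 at 3.14 and Slc25a12 at -1.66, and on the log2 scale the glutamate carrier Slc25a22 fell by 2.78 and the glycine carrier Slc25a38 fell by 1.71. Slc25a39, which brings glutathione into mitochondria, rose by 0.62, and Slc25a44, a carrier of branched-chain amino acids, fell by 0.81. In NKX1-2 wells 4 rose (Slc25a13, Slc25a39, Slc25a40 and the serine carrier Sfxn1) and 4 fell (Slc25a12, Slc25a22, Slc25a38 and Slc25a44) of 10 tested. Among other membrane carriers, 1 of 4 tested genes was lower in control wells, the lysosomal cysteine carrier Mfsd12 (-1.86), and 3 of 5 in NKX1-2 wells (Mfsd12, Slc15a4 and Slc16a10). Neither list had a call under the morpholino.

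Of 28 tested genes for amino acid sensing by mTORC1, 4 were higher and 4 lower in blastocyst control wells (median 0.33). Rragd (1.17) and Rheb (0.68), GTPases that act on the kinase, and Lamtor4 (0.95), which anchors them to the lysosome, rose, as did Fnip1 (1.38). Tfeb (-2.76), the lysosomal transcription factor, Mtor itself (-1.18), the arginine sensor Castor1 (-1.07) and Kptn (-1.19) fell. In NKX1-2 wells 4 of 26 rose (Rragd, Rheb, Lamtor4 and Lamtor5) and 4 fell (Tfeb, Castor1, Kptn and Seh1l). No gene of this list had a call under the morpholino, with a median of -0.10 in the morula and -0.14 in the blastocyst.

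The GCN2 and ATF4 axis, which answers a lack of amino acids, had 3 of 19 tested genes higher and 5 lower in blastocyst control wells (median 0.19). Cbs (2.85) and Asns (2.05), enzymes of cysteine and asparagine synthesis, and Eif2s1 (0.44) rose. Trib3 (-2.19), Ddit4 (-2.09), Atf5 (-2.03), Cebpg (-0.98) and Cebpb (-0.94) fell. In NKX1-2 wells 2 rose (Cbs and Asns) and 7 fell (Ddit4, Trib3, Cebpb, Atf5, Nupr1, Cebpg and Phgdh). Among these lists it alone had calls under the morpholino, where 37 of all 10873 tested genes were lower in the blastocyst and 170 were higher and 145 lower on average. In the blastocyst Ddit4, an inhibitor of mTORC1 signalling, had a log2 fold change of -1.52 (SE 0.28, edgeR adjusted p = 0.0222), and Phgdh, the first enzyme of serine synthesis, one of -0.66 (SE 0.13, adjusted p = 0.0267). On average over the stages Ddit4 was lower (-0.84), and the serine synthesis enzymes Psat1 (0.44) and Psph (0.78) were higher. These calls are given from the main setting only. Over all genes, blastocyst calls under the morpholino fell from 79 to 21 with DESeq2, and to 14 among wells with Xist and no Y-linked count. Average calls fell from 315 to 60 and 36. Nupr1 of this axis was a leading gene of the cluster that held control wells only. Levels of Ddit4 and Phgdh without that cluster were not compared.

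Glycine cleavage and glutamine use had 2 of 14 tested genes higher and 4 lower in blastocyst control wells (median -0.40). Gls2 (-1.80), a glutaminase, Gldc (-0.93) and Gcsh (-0.91) of the glycine cleavage system and Glul (-0.88), glutamine synthetase, fell, while Dld (0.98) and Oat (1.02) rose. In NKX1-2 wells 5 fell (Gls2, Gcsh, Glul, Amt and Gldc) and Got1 rose (1.08), and 0 had a call under the morpholino by edgeR. Of 20 genes typical of other tissues, used to see what level is background, 96 of 160 values per sum were at 0. Ttn was found in up to 68.8% of wells (NKX1-2 wells of morula plate 1, median 21.9 CPM). Nphs1 was found in up to 55.3% (NKX1-2 wells of morula plate 2, median 14.1 CPM). Nphs1, Pomc and Myh7 were called between stages. Low shares of wells were therefore read only beside CPM, and neither they nor levels of this size are proof of expression.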

How the data were processed

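Counts per gene and well barcode were deposited by the authors as whole numbers without normalization, with a table of the morpholino of each barcode. Per the labels' protocols, RNA was lysed with a detergent, captured by polyA and made into TruSeq libraries. The labels' descriptions name 10x Genomics. Per the submitters' processing notes, the tools and builds include TopHat2, GRCm38 and mm10. No source used here names the counter, the use of strand or molecular identifiers, so overlapping genes, gene length and copies of a molecule may bias a level. All 67 members were matched by symbol to GENCODE M21. Left out of the fits were 344 neighbouring genes without morula counts, with no member among them. Among them were the markers Upp1 and Utf1, the Y-linked Uty and the background gene Umod.

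Counts of kept wells were summed per plate and morpholino and tested across all genes with edgeR 4.0.16 (robust quasi-likelihood, filterByExpr, TMM, Benjamini-Hochberg, R 4.3.3). Morpholino effects came from 1 fit of 8 sums with the plate as a block, because both morpholinos share each plate by design. Deviations of the 2 sums of a plate correlated at 0.439 for morulae and 0.00435 for blastocysts. Replicate numbers were not taken to pair the stages (0.0852 and -0.0196). Clusters came from scanpy 1.11.5 and leidenalg 0.10.2 at resolution 1.0. Exact intervals are Clopper-Pearson, at 95%. Members and lists were chosen with earlier results of these data known, and motifs, roles and clusters after their values were seen. Levels in all sums are given for members that passed, for the 12 highest and for Slc6a9, Slc6a14 and Slc6a20a. The stage difference came from 1 fit of the 4 control sums and another of the 4 NKX1-2 sums. From the other lists, members that passed are named, except 1 that is not reported here. Each fit was tested on simulated data, with 200 genes changed per comparison. These were drawn at random from tested genes of all levels, and all sums had the same baseline, without plate or stage differences. Recovery at the low levels of many members was not measured apart. Changes of 2-fold were recovered in 19% (how the morpholino effect differed by stage) to 65% (its mean over stages), and 4-fold ones in 61% to 90%. For the morpholino effect among blastocyst sums these shares were 40% and 73%. Wrong signs numbered 0, and 8 to 22 unchanged genes were called, the most by the NKX1-2 stage fit. A member without a call may therefore still differ by 2-fold. Alternatives were other scaling, filters, wells, blocks, DESeq2 and leaving out plates.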

Additional observations from a re-analysis of the deposited data

How the results depend on the processing

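In the blastocyst the count of members changed by the morpholino went from 1 to 0 when every well was kept, with wells that had Xist and no Y-linked count, with no replicate block and with DESeq2 1.42.0. In the morula it went from 0 to 1 with the plates of that stage alone. With 1 plate left out in turn, the counts ran from 0 to 1 in the morula, were 1 in the blastocyst, and ran from 0 to 2 on average, from 4 to 8 between stages in control wells and from 5 to 9 in NKX1-2 wells. A plate left alone is assumed to vary like the others. Between stages, control wells gave 10 in place of 6 without a filter on low counts and 10 with scaling to total counts alone. NKX1-2 wells gave 6 in place of 12 among wells with Xist and no Y-linked count and 7 with DESeq2. The cause was not tested. All genes called moved from 60, 79, 315 and 2 (morula, blastocyst, average and difference) to 8, 14, 36 and 0 among wells with Xist and no Y-linked count, 15, 21, 60 and 1 with DESeq2, 179, 254, 532 and 27 without a filter, 34, 43, 185 and 1 without the block, and 834 and 130 (morula and blastocyst) with a stage's plates alone. With 1 plate left out they ran over 13 to 838, 99 to 635, 92 to 1071 and 4 to 252. Between stages, 3993 (control) and 4690 (NKX1-2) became 1602 and 2684 among the Xist wells, 2513 and 2998 with DESeq2, and 2586 to 4213 and 2266 to 3592 with 1 plate left out.

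The replicate number as a block left the counts between stages at 6 and 12. For the 19 called pairs of gene and comparison, 0 of 218 alternative values reversed and 38 lost the call, while Slc6a8, Slc6a6 and Slc7a5 kept it in all. DESeq2 gave no adjusted p for 1 value. Without the highest well, 51 of 140 levels moved by more than the SD of 2 plates. Depth limits the genes below about 10 CPM, and those near 0 cannot be called absent.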
